A study of Homo sapiens with 8 samples.

Results

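The effect of the miR-17-92 cluster on gene expression during NOTCH1 blockade was read from 4 of the 8 arrays of the study, chosen by their labels: 2 of miRNA17-92 cells and 2 of Empty-V cells, all treated with GSI. CUTLL1 is a human T-cell acute lymphoblastic leukemia (T-ALL) line with aberrant NOTCH1 activation, and GSI is a γ-secretase inhibitor, which blocks the protease that frees the intracellular domain of NOTCH1. The groups were miRNA17-92 cells with 1 µM GSI, Empty-V cells with 1 µM GSI, miRNA17-92 cells with DMSO and Empty-V cells with DMSO. Each was cultured for 2 days and had 2 arrays, labelled set 1 and set 2. The supplement of the paper reports 2 independent biological experiments, and the set numbers were taken here to mark them. The miRNA17-92 cells carried a lentivirus encoding the cluster and the Empty-V cells the same kind of vector without it, and the transduced cells were sorted by flow cytometry. All 4 groups therefore share a single cell line, lentiviral transduction and sorting, and the ectopic cluster was driven by the vector and not by its own promoter. RNA was measured on Clarion S Human arrays, where a probe set is a group of short probes for the transcripts of a gene. Values are log2 signals as deposited, so that a difference of 1 is a 2-fold change, and each difference is miRNA17-92 minus Empty-V.

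The miR-17-92 cluster is transcribed as a single primary RNA from the host gene MIR17HG and cut into several mature microRNAs. Each guides an Argonaute protein to messenger RNAs, mostly through pairing of its seed, bases 2 to 8, with sites in their 3′ untranslated regions, which lowers the stability and translation of those RNAs. The cluster is a known oncogene of lymphoid cells and is transcribed under control of MYC, itself a direct target of NOTCH1 in T-ALL. The question asked of these arrays was which transcripts differed between cells with and without the ectopic cluster while NOTCH1 signalling was blocked.

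The 6 mature microRNAs that the cluster is known for are shown because the target groups below are divided by their seeds. Sequences and positions are those of RefSeq on GRCh38.p14, 5′ to 3′, with the seed in capitals.
hsa-miR-17-5p: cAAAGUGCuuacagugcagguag
hsa-miR-20a-5p: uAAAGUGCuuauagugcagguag
hsa-miR-18a-5p: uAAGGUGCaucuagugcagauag
hsa-miR-19a-3p: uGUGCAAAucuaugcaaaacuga
hsa-miR-19b-3p: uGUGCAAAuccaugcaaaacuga
hsa-miR-92a-3p: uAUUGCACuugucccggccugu
They lie on the plus strand from chr13:91350618-91350640 for miR-17-5p to chr13:91351361-91351382 for miR-92a-3p, within MIR17HG, a long non-coding RNA gene at chr13:91347687-91354577. miR-17-5p and miR-20a-5p share the seed AAAGUGC, and miR-19a-3p and miR-19b-3p share GUGCAAA. The seeds of miR-18a-5p and miR-92a-3p, AAGGUGC and AUUGCAC, are held by no other of the 6.

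No probe set is named for MIR17HG, so the ectopic transcript could not be checked by name. The probe set with the smallest p, TC1300007706.hg.1, carries no gene name, and its identifier starts with the platform's code for chromosome 13. Its log2 signal was 11.55 and 12.14 in miRNA17-92 cells with GSI, against 6.02 and 6.45 in Empty-V cells with GSI. In DMSO it was 11.04 and 10.66 in miRNA17-92 cells, against 7.26 and 6.54 in Empty-V cells. Every array of miRNA17-92 cells was thus higher than every array of Empty-V cells under either treatment. The difference was 5.61 with GSI (standard error 0.29, adjusted p = 1.94e-04, with the set as a block 3.97e-04) and 3.95 with DMSO (adjusted p = 0.00455, with the block 0.00894). Whether this probe set detects RNA from the vector or from MIR17HG was not tested. MCM7, the host gene of the related miR-106b-25 cluster, had 14.83 and 14.84 in miRNA17-92 cells with GSI, against 14.62 and 14.54 in Empty-V cells with GSI (adjusted p = 0.417). As a check of the blockade, NRARP, a direct NOTCH1 target, had 4.19 and 4.46 in miRNA17-92 cells and 4.26 and 4.54 in Empty-V cells with GSI, and between 9.98 and 10.51 on the 4 arrays with DMSO.

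Under GSI, 230 of 21448 probe sets (1.07%) differed between miRNA17-92 and Empty-V cells at an adjusted p below 0.05 in limma, 107 higher (0.499%) and 123 lower (0.573%) in miRNA17-92 cells. Named genes made up 203 of them, 99 higher and 104 lower. The differences that passed were at least 0.78 in size with a median size of 1.11, and 159 exceeded 2-fold, 68 higher and 91 lower. In all 107 and all 123 the arrays of the 2 groups did not overlap, against 22.2% of all probe sets higher and 24.5% lower. A lack of overlap thus adds nothing to a call. The median difference over all probe sets was -0.015 and their standard deviation 0.364, against -0.01 and 0.289 with DMSO. At an unadjusted p below 0.05, 1860 probe sets (8.67%) were higher and 1978 (9.22%) lower.

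The calls depended on how the arrays were paired and on each array. Once set was entered as a block, 33 remained called (0.154%), 8 higher (0.0373%) and 25 lower (0.117%), all of them within the 230. Named genes were 7 of the 8 and 24 of the 25. When 1 GSI array was left out, the number of calls was 4 without set 1 and 8 without set 2 of miRNA17-92 cells, and 9 without set 1 and 4 without set 2 of Empty-V cells. Without either array of miRNA17-92 cells with DMSO it was 85, and without either of Empty-V cells with DMSO 77. SCG2 and the unnamed probe set on chromosome 13 passed without each of the 8 arrays. For this reason the adjusted p of the fit without the block and that of the fit with it are given side by side below.

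**Figure D1:**
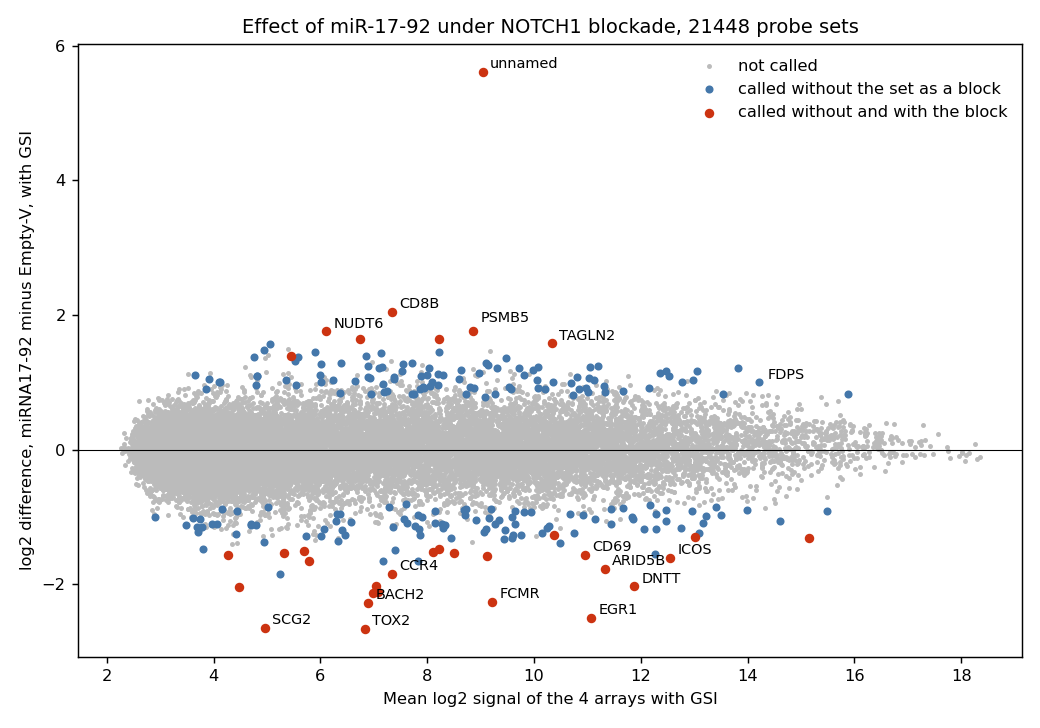
log2 difference with GSI (y axis, miRNA17-92 minus Empty-V) of each of 21448 probe sets against its mean log2 signal on the 4 GSI arrays (x axis). Red points passed the test without and with the set as a block (33), blue points only without it, and grey points did not pass. The unnamed probe set stands alone at 5.61, and the red points below 0 outnumber those above it, 25 against 8.

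The 2 sets, taken as the 2 experiments, can also be read against each other. Of 297 probe sets more than 2-fold higher in miRNA17-92 cells in set 1, 200 (67.3%) were higher in set 2 as well, with a median difference there of 0.36. Of 353 more than 2-fold lower in set 1, 254 (72.0%) were lower in set 2, with a median of -0.42. With set 2 choosing, 247 of 323 (76.5%) were higher and 288 of 382 (75.4%) lower in set 1. Over all probe sets 47.5% had a difference above 0 and 51.9% below. The probe sets past 2-fold in both set 1 and set 2 were 45 higher and 74 lower with GSI, and 14 higher and 14 lower with DMSO. The correlation of the differences of set 1 and set 2 over probe sets, which are not independent replicates, was 0.291 with GSI and 0.114 with DMSO.

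**Figure D2:**
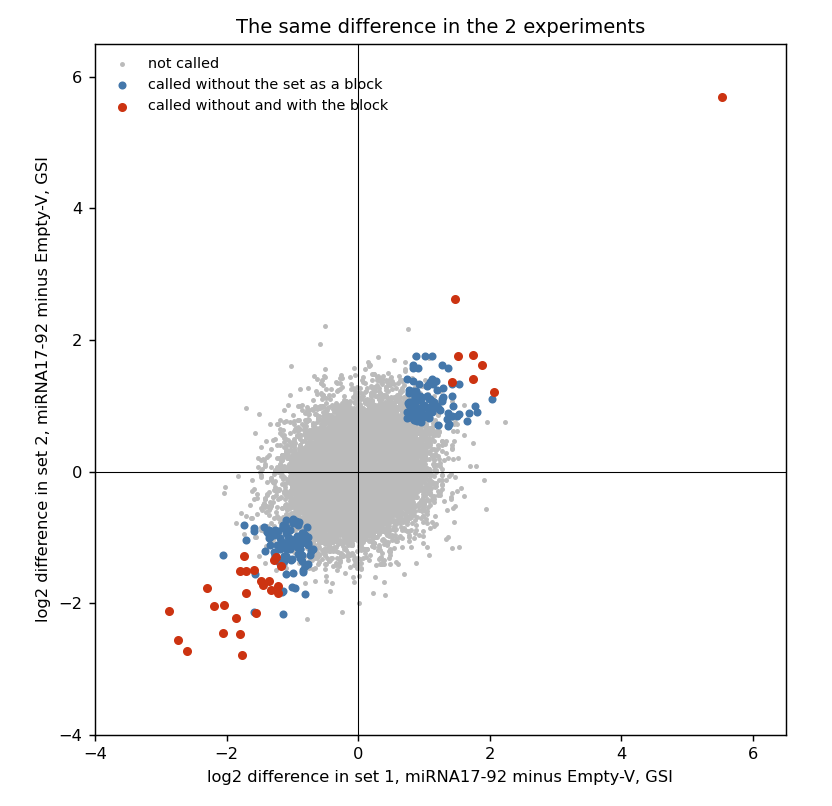
log2 difference between miRNA17-92 and Empty-V cells with GSI in set 1 (x axis) and set 2 (y axis), 1 point per probe set, on equal axes. The called probe sets lie in the upper right and lower left parts, as they must, since their groups do not overlap. The uncalled mass around 0 is only weakly tilted, at a correlation of 0.291 over all points.

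Genes that mark stages of thymocyte development and lymphoid transcription factors held some of the largest falls in miRNA17-92 cells with GSI. TOX2, an HMG-box transcription factor of developing lymphocytes (chr20:43914852-44069616), had a log2 signal of 5.27 and 5.74 in miRNA17-92 cells, against 7.87 and 8.47 in Empty-V cells. The groups lay more than 2 units apart, and the difference of -2.67 (standard error 0.25) had an adjusted p of 0.00489 without and 0.00972 with the block. With DMSO TOX2 was near the background in all cells, at 3.63 and 3.34 in miRNA17-92 cells and 3.47 and 3.72 in Empty-V cells. DNTT, the terminal deoxynucleotidyl transferase that adds bases at V(D)J junctions (chr10:96304434-96338564), had 10.77 and 10.96 in miRNA17-92 cells and 12.81 and 12.98 in Empty-V cells with GSI, a difference of -2.03 (standard error 0.18, adjusted p = 0.00489, with the block 0.0163). It was also lower in DMSO, by -1.45. BACH2, a transcriptional repressor of lymphocytes (chr6:89926528-90296843), had 5.72 and 5.78 in miRNA17-92 cells, against 7.49 and 8.57 in Empty-V cells. The Empty-V arrays of BACH2 were more than 1 unit apart, and both were above the miRNA17-92 arrays (difference -2.28, standard error 0.29, adjusted p = 0.0179, with the block 0.0247).

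ARID5B, a DNA-binding regulator of lymphoid development, had 10.32 and 10.55 in miRNA17-92 cells with GSI, against 12.03 and 12.39 in Empty-V cells with GSI. The arrays of the vectors did not overlap (difference -1.78, standard error 0.20, adjusted p = 0.0113, with the block 0.0290). CCR4, a chemokine receptor of T cells, had 6.65 and 6.17 in miRNA17-92 cells and 8.20 and 8.32 in Empty-V cells (difference -1.85, adjusted p = 0.00745, with the block 0.0227), and CD27, a costimulatory receptor of the TNF receptor family, had 7.60 and 7.35 against 8.82 and 9.09 (difference -1.48, adjusted p = 0.0178, with the block 0.0493). ID3, an inhibitor of E proteins, differed by -1.17 and passed only without the block (adjusted p = 0.0274, with it 0.0834). Of 31 measured thymocyte stage genes 5 were called lower and 2 higher, against 0.573% and 0.499% of all probe sets, and the list's median difference was -0.08. With the block, 4 were lower and 1 higher. The called members beyond DNTT, TOX2, CCR4, CD27 and CD8B were CCR9, a receptor of thymic chemokine, at -1.56 and RAG1, the V(D)J recombinase subunit, at 1.17, both named after their values were seen and neither past the test with the block (adjusted p = 0.0768 and 0.0772). Of 41 lymphoid transcription factors 3 were lower, ARID5B, BACH2 and ID3, and 1 was higher, BCL11A, with a list median of -0.13.

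**Figure D3:**
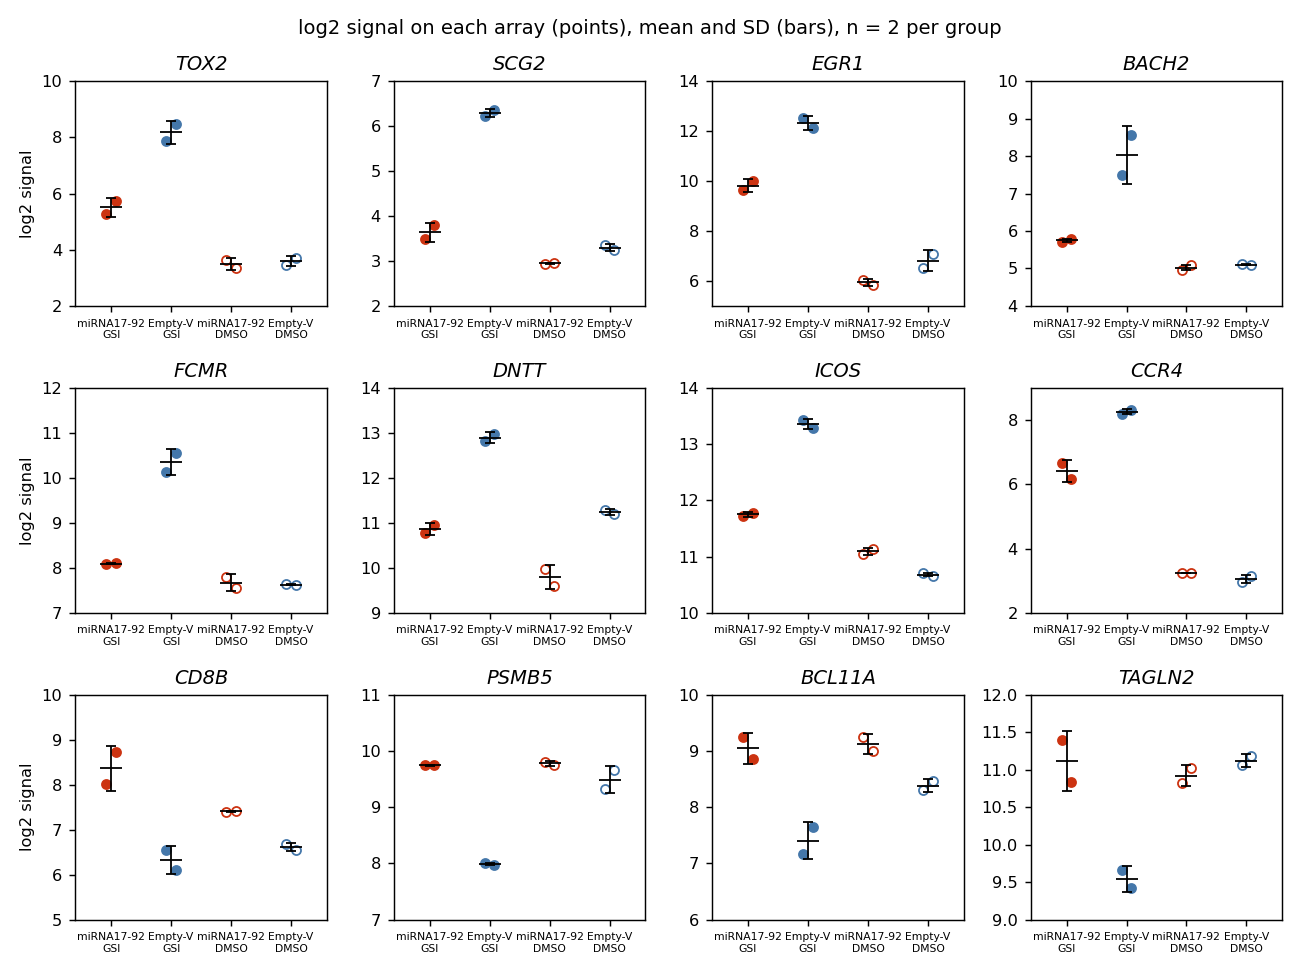
log2 signal (y axes, which do not start at 0 and differ between panels) of 12 genes on each array in miRNA17-92 and Empty-V cells with GSI (filled points) and with DMSO (open points), with the mean and SD of n = 2 arrays per group. TOX2, SCG2, EGR1, BACH2, FCMR, DNTT, ICOS and CCR4 are lower, and CD8B, PSMB5, BCL11A and TAGLN2 higher, in miRNA17-92 cells with GSI, with no overlap between the arrays of these groups. All are called genes, and no called probe set had such an overlap. Of all probe sets 22.2% were higher and 24.5% lower without overlap.

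Immediate early genes, which are transcribed within minutes of a stimulus, were called lower for 4 of 24 members, against 0.573% of all probe sets. EGR1, an immediate early zinc-finger transcription factor (chr5:138465479-138469303), had 9.64 and 10.00 in miRNA17-92 cells with GSI, against 12.52 and 12.12 in Empty-V cells with GSI. Both arrays of miRNA17-92 cells lay more than 2 units under both arrays of Empty-V cells (difference -2.50, standard error 0.24, adjusted p = 0.00489, with the block 0.0163). In DMSO EGR1 was lower on all 4 arrays, at 6.05 and 5.84 in miRNA17-92 cells and 6.52 and 7.10 in Empty-V cells. CD69, a membrane protein of early activation that retains T cells in tissue, had 10.34 and 10.00 in miRNA17-92 cells, against 11.67 and 11.80 in Empty-V cells (difference -1.57, adjusted p = 0.0146, with the block 0.0445). IER3, an immediate early survival gene, differed by -1.18 and ZFP36, which destabilizes AU-rich mRNAs, by -1.10. These 2 passed only without the block, where their adjusted p was 0.0356 and 0.0396 and with it 0.0802 and 0.0989. The 4 genes were the called members of the 24 measured immediate early genes. Of these 18 had a difference below 0, against 51.9% of all probe sets. By limma 0 were called higher, and the median was -0.11. At an unadjusted p below 0.05, 8 were lower and 2 higher, against 9.22% and 8.67% of all probe sets. Of the 24 members 12 had means below 5.32, the median of all values, in both groups. FOS and JUN, subunits of AP-1, had differences of 0.22 and 0.31 with adjusted p of 0.727 and 0.497. Of 17 ERK feedback genes, phosphatases and other inhibitors that ERK signalling induces, 0 passed in limma, 6 were lower at an unadjusted p below 0.05, as were 9.22% of all probe sets, and the median was -0.22.

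ICOS, a costimulatory receptor of activated T cells, had 11.72 and 11.78 in miRNA17-92 cells with GSI, against 13.42 and 13.29 in Empty-V cells with GSI. The arrays of a group lay within 0.13 of each other, and the difference of -1.61 (standard error 0.15) had an adjusted p of 0.00489, with the block 0.0227. It was the only called member of 25 measured T-cell activation and effector genes, whose median was -0.12. Of 38 genes of T-cell receptor signalling 2 were called, both lower and both only without the block: CD2, an adhesion receptor, at -1.14 (adjusted p = 0.0385, with the block 0.0989), and NFATC1, a calcineurin-dependent transcription factor, at -0.96 (adjusted p = 0.0396, with the block 0.0989). Their list had a median of -0.22, and 27 of the 38 were below 0. Over all probe sets 0.573% were called lower and 51.9% were below 0. LAX1, a membrane adaptor that limits antigen receptor signalling, had 9.68 and 9.80 in miRNA17-92 cells and 10.93 and 11.10 in Empty-V cells (difference -1.28, adjusted p = 0.0146, with the block 0.0493). TARP, a transcript of the T-cell receptor gamma locus, had 14.55 and 14.43 against 15.83 and 15.78 (difference -1.32, adjusted p = 0.0126, with the block 0.0451), and its signal cannot be told from that of the overlapping gamma chain genes.

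SCG2, a secretory granule protein, and FCMR, an Fc receptor for IgM, had the smallest p among named genes. SCG2 (chr2:223596940-223602361) had 3.48 and 3.79 in miRNA17-92 cells with GSI, against 6.22 and 6.35 in Empty-V cells with GSI. Only the Empty-V arrays with GSI exceeded 5.32, the median of all values, and the size of the difference, -2.65, is uncertain near the background (standard error 0.17, adjusted p = 6.08e-04, with the block 0.0026). FCMR (chr1:206903317-206923196) had 8.08 and 8.10 in miRNA17-92 cells, against 10.14 and 10.56 in Empty-V cells. The miRNA17-92 arrays with GSI were within 0.6 of all 4 arrays with DMSO, which lay between 7.54 and 7.80, and the Empty-V arrays with GSI were above them (difference -2.26, standard error 0.19, adjusted p = 0.00399, with the block 0.0111).

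Further genes were lower in both fits. CEMIP2, a cell-surface hyaluronidase, had 5.89 and 5.95 in miRNA17-92 cells and 7.68 and 8.42 in Empty-V cells with GSI (difference -2.13, adjusted p = 0.0148, with the block 0.0372). GPR18, a G protein-coupled receptor of lymphocytes, had 6.05 and 5.99 against 8.24 and 8.03 (difference -2.12, adjusted p = 0.0186, with the block 0.0445). PEX5L, a relative of the peroxisomal import receptor, had 5.72 and 6.33 against 8.01 and 8.10 (difference -2.03, adjusted p = 0.00777, with the block 0.0191). In each of the 3 the groups were apart by more than 1 unit. CD48, a ligand of the SLAM family, CR2, the complement receptor CD21, and TENT5C, a non-canonical poly(A) polymerase, differed by -1.59, -1.54 and -1.66, and PNRC1, a nuclear receptor coactivator, by -1.30, with adjusted p of 0.00489 to 0.0186 without and 0.0227 to 0.0493 with the block. ZDHHC11, PCNX2 and the uncharacterized LOC389834 differed by -1.53, -1.51 and -1.52 and passed in both fits. ZDHHC11 has a near-identical copy, ZDHHC11B, and its value may hold signal of both. PTGER4, a receptor of prostaglandin E2, and CYTIP, a cytohesin-binding protein of lymphocytes, differed by -1.66 each and passed only without the block (adjusted p = 0.0300 and 0.0274, with it 0.0693 and 0.0665). Of the 123 probe sets called lower, 26 had a mean below 5.32 in 1 or both groups and 16 in both. In a bulk sample, fewer cells of a type and less RNA per cell cannot be told apart.

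Published targets of the cluster were grouped by the seed under which each was listed. Their 3′ untranslated regions were not searched for matching sites. In the group of miR-17 and miR-20a, 2 of 38 genes were called, RBL2 and CCNG2, both lower, and 28 of 38 had a difference below 0, with a median of -0.18 and, in DMSO, of -0.09. RBL2, the pocket protein p130 that represses E2F target genes, had 11.74 and 11.66 in miRNA17-92 cells with GSI, against 12.92 and 12.83 in Empty-V cells with GSI, a difference of -1.18 (standard error 0.18, adjusted p = 0.0286). CCNG2, a cyclin that restrains the cell cycle, had 11.89 and 12.01 against 12.94 and 13.07, a difference of -1.06 (standard error 0.16, adjusted p = 0.0274). The arrays of both genes were apart by about 1 unit, but neither passed with the block (adjusted p = 0.0861 for each). CDKN1A and BCL2L11, which encode p21 and the proapoptotic protein BIM, differed by -0.58 and -0.10 (adjusted p = 0.204 and 0.791), and E2F1, an activator of S-phase genes, by 0.87 (adjusted p = 0.0828).

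In the group of miR-19, 2 of 23 genes were called lower, RNF11, a ubiquitin ligase of the A20 complex, at -1.17 (adjusted p = 0.0356, with the block 0.0973), and SGK1, a serum-induced kinase, at -0.97 (adjusted p = 0.0356, with the block 0.105), and 17 were below 0. The median was -0.29 with GSI and 0 with DMSO. CYLD, a deubiquitinase that restrains NF-kB and is a published target of miR-19 in T-ALL, differed by -0.73 (adjusted p = 0.0715). In the group of miR-18, 0 of 10 genes passed in limma (4 lower and 1 higher at an unadjusted p below 0.05), 8 were below 0 and the median was -0.32, with NEDD9, an adhesion scaffold, at -1.08 (adjusted p = 0.0587) and ESR1, the estrogen receptor, at -0.54 on a signal below 3.6 (adjusted p = 0.133). In the group of miR-92, CD69 was called lower and the median of the 19 genes was -0.07, with DUSP10, a phosphatase of stress kinases, at -0.86 (adjusted p = 0.0873). The lists overlap, as TNFAIP3 and BCL2L11 stand in several of them. Beside these counts, 0.573% of all probe sets were called lower and 51.9% had a difference below 0. At an unadjusted p below 0.05, 9.22% of all probe sets were lower and 8.67% higher.

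Other regulators shared some of these genes. Their counts stand beside 0.573% of all probe sets called lower and 51.9% with a difference below 0. FOXO-dependent genes had 3 called members of 25, all lower: PNRC1, CCNG2 and RBL2, with a list median of -0.26, and PNRC1 alone passed with the block. Among 14 CDK inhibitors and pocket proteins only RBL2 and CCNG2 were called, and 7 were above 0 and 7 below. Of 25 TGF-beta and BMP pathway genes, 18 were below 0 and ID3 alone was called. TGFBR2, the type II receptor and a published target of the cluster, differed by -1.03 (adjusted p = 0.0530). Of 22 genes of the microRNA machinery 18 were below 0, with a median of -0.20, and AGO1, an Argonaute protein, was called at -0.94 (adjusted p = 0.0421, with the block 0.113). TET3, a 5-methylcytosine dioxygenase, was the called member of 35 polycomb and chromatin regulators, at -1.0 (adjusted p = 0.0486, with the block 0.120).

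Named genes higher in miRNA17-92 cells with GSI numbered 7 in both fits, against 24 that were lower. CD8B, a chain of the CD8 coreceptor (chr2:86815369-86861886), had 8.01 and 8.72 in miRNA17-92 cells with GSI, against 6.54 and 6.10 in Empty-V cells with GSI. Both miRNA17-92 arrays were above both Empty-V arrays, and the difference was 2.05 (standard error 0.25, adjusted p = 0.0144, with the block 0.0345). PSMB5, the chymotrypsin-like catalytic subunit of the proteasome (chr14:23025851-23035220), had 9.74 and 9.75 in miRNA17-92 cells, against 8.00 and 7.97 in Empty-V cells. The miRNA17-92 arrays with GSI lay inside the range of the 4 arrays with DMSO, 9.32 to 9.81, and the Empty-V arrays with GSI below it (difference 1.76, standard error 0.17, adjusted p = 0.00489, with the block 0.0225). BCL11A, a zinc-finger repressor of lymphoid and erythroid cells (chr2:60450520-60553924), had 9.24 and 8.85 in miRNA17-92 cells, against 7.17 and 7.64 in Empty-V cells (difference 1.64, standard error 0.22, adjusted p = 0.0196, with the block 0.0493). TAGLN2, an actin-binding protein, had 11.40 and 10.83 against 9.66 and 9.42 (difference 1.58, standard error 0.21, adjusted p = 0.0205, with the block 0.0493).

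NUDT6, a nudix hydrolase gene that overlaps FGF2 on the opposite strand, had 6.89 and 7.08 in miRNA17-92 cells and 5.00 and 5.46 in Empty-V cells with GSI (difference 1.76, adjusted p = 0.00777, with the block 0.0227). TSPAN2, a tetraspanin, had 7.55 and 7.57 against 6.03 and 5.82 (difference 1.64, adjusted p = 0.0120, with the block 0.0353), and HYDIN, a cilium gene with a near-identical copy elsewhere in the genome, had 6.11 and 6.19 against 4.68 and 4.83 (difference 1.40, adjusted p = 0.0232, with the block 0.0493). ERVH48-1, AGTRAP, DHRS11, TIMM8A, ATP6V1G2, SBK1 and DGCR6L followed by size, at 1.57 to 1.38, and passed only without the block. Of the genes of this paragraph, NUDT6, HYDIN, ERVH48-1, AGTRAP, DHRS11, SBK1 and DGCR6L had means below 5.32 in Empty-V cells, where the size of a difference is uncertain. Of 107 probe sets called higher, 18 had such a mean in 1 or both groups and 6 in both.

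The gene groups that stood highest with GSI were those of growth: DNA replication, cholesterol synthesis, the respiratory chain, the mitochondrial ribosome, the proteasome and chaperones. Between 84.7% of their members, in the mitochondrial ribosome, and 100%, in cholesterol synthesis and chaperones, had a difference above 0, against 47.5% of all probe sets. Among probe sets with a mean signal of 12 or more that share was 59.1%, and among 20 housekeeping genes 85.0%. The share called higher was 15.4% in cholesterol synthesis, 9.76% in the proteasome, 7.94% in the respiratory chain, 7.5% in DNA replication, 1.69% in the mitochondrial ribosome and 0% in chaperones, against 0.499% of all probe sets. Of 40 DNA replication genes 39 were above 0, the median was 0.48 with GSI and -0.07 with DMSO, and 3 were called higher. CDT1, which licenses replication origins, had 7.83 and 7.57 in miRNA17-92 cells, against 6.39 and 6.58 in Empty-V cells (difference 1.22, standard error 0.19, adjusted p = 0.0286). RFC2, a subunit of the clamp loader, and POLD2, a subunit of DNA polymerase delta, differed by 1.10 and 1.06 (adjusted p = 0.0396 and 0.0356). None of these 3 passed with the block, where their adjusted p was 0.0861 to 0.107. PCNA, the sliding clamp, differed by 0.22 and RRM2, a ribonucleotide reductase subunit, by -0.27 (adjusted p = 0.501 and 0.422).

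Of 22 G1 cyclins, kinases and E2F genes, which drive the G1 to S transition, CDK4 and CDC25A were called, both higher. Over all probe sets 0.499% were called higher. CDK4, the kinase of D-type cyclins, had 12.96 and 12.87 in miRNA17-92 cells with GSI, against 12.03 and 11.54 in Empty-V cells with GSI, and between 13.05 and 13.32 on the 4 arrays with DMSO. The GSI arrays of Empty-V cells were the lowest for this gene, and the difference was 1.13 (standard error 0.19, adjusted p = 0.0364, with the block 0.0987). CDC25A, a phosphatase that activates CDK2, differed by 1.14 (adjusted p = 0.0396, with the block 0.104). In the list 17 genes were above 0 and 5 below, 9 were higher and 2 lower at an unadjusted p below 0.05, and the median was 0.34 with GSI and 0 with DMSO. Of 36 mitosis genes 29 were above 0 with a median of 0.28 and 0 passed in limma (14 higher at an unadjusted p below 0.05, as were 8.67% of all probe sets), BIRC5, which encodes survivin, being the largest at 0.98 (adjusted p = 0.0756).

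In cholesterol and fatty acid synthesis all 26 measured genes were above 0 with GSI, with a median of 0.46, and this list also had the highest median in DMSO among those named here, 0.28. LSS, lanosterol synthase, had 10.33 and 9.97 in miRNA17-92 cells, against 8.52 and 9.06 in Empty-V cells (difference 1.36, standard error 0.22, adjusted p = 0.0303, with the block 0.0861). FDPS, farnesyl diphosphate synthase, differed by 1.00, NSDHL, a sterol dehydrogenase, by 0.94 and DHCR7, the last enzyme of cholesterol synthesis, by 0.87. They passed without the block (adjusted p = 0.0356, 0.0465 and 0.0441) and not with it, where the adjusted p of DHCR7 was 0.124.

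Mitochondrial genes made up the longest of these lists. Of 63 genes of the respiratory chain and ATP synthase 60 were above 0, 5 were called higher, and the median was 0.43 with GSI and -0.10 with DMSO. NDUFA11, a complex I subunit, had 11.62 and 11.69 in miRNA17-92 cells, against 10.78 and 10.07 in Empty-V cells (difference 1.23, standard error 0.23, adjusted p = 0.0481, with the block 0.113). UQCR10 of complex III, COX7B of complex IV and ATP5MC3 of ATP synthase differed by 1.04, 1.00 and 0.91, and NDUFA7, named as the called member left over, by 0.86, all without passing with the block. Of 59 mitochondrial ribosomal proteins 50 were above 0 with a median of 0.43, and MRPL13 was called at 1.17 (adjusted p = 0.0300, with the block 0.0892). TIMM8A, a chaperone of the mitochondrial intermembrane space, differed by 1.44 (adjusted p = 0.0274, with the block 0.0636).

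Of 41 proteasome genes 39 were above 0, with a median of 0.38 with GSI and 0.01 with DMSO, and 4 were called higher. After PSMB5 these were PSMB9, a subunit of the immunoproteasome, at 0.94, and the alpha-ring subunits PSMA3 at 0.86 and PSMA6 at 0.83, none past the test with the block (adjusted p = 0.113 to 0.129). All 25 chaperones and all 30 cytosolic ribosomal proteins measured were above 0, with medians of 0.38 and 0.30, which were 0.33 to 0.42 and 0.17 to 0.43 without 1 array. In either list 0 passed in limma, 15 and 8 were higher at an unadjusted p below 0.05, against 8.67% of all probe sets, and DNAJA1, an HSP70 cochaperone, at 0.74 and RPS19 at 0.69 are examples (adjusted p = 0.0571 and 0.106). Genes of nucleotide and polyamine synthesis and of glycolysis had medians of 0.32 and 0.28, with PAICS, a purine synthesis enzyme, at 0.66 and LDHA, lactate dehydrogenase, at 0.68 (adjusted p = 0.0687 and 0.0810). Ribosome biogenesis factors lay closer to the rest, at a median of 0.13.

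The difference also varied with signal and gene length over all probe sets, and the part of either in the values of the lists was not tested. Of 1629 probe sets with a mean signal of 12 or more, 59.1% were above 0, against 42.9% of the 10763 below the median signal. Among probe sets at or above the median signal, which were divided into 4 equal classes by gene length, 65.0% of the class of shortest genes, up to 12906 bases from start to end, were above 0 with a median of 0.14, and 39.0% of the longest, over 68782 bases, with a median of -0.09. In DMSO these medians were -0.05 and 0. Among the lists with a median above 0, the median gene length was 10460 bases for the respiratory chain, 15314 for the proteasome, 21939 for cholesterol synthesis, 24386 for DNA replication, 31432 for the G1 genes and 32870 for nucleotide and polyamine synthesis. Among those with a median below 0 it was 6092 for immediate early genes, 7607 for T-cell activation genes, 11704 for FOXO-dependent genes and 13627 for ERK feedback genes, and 43127 for the miR-17 targets, 101647 for the lymphoid transcription factors and 114520 for the microRNA machinery. Lists above 0 with shorter genes still were the histone genes (494 bases), cytosolic ribosomal proteins (4443) and the mitochondrial ribosome (8667). Lists below 0 with long genes also included T-cell receptor signalling (43286), TGF-beta and BMP (54830), polycomb (61608) and prostaglandin and cAMP genes (110195). Of 20 housekeeping genes 17 were above 0 with a median of 0.16, and TFRC, the transferrin receptor, was called at 0.91 (adjusted p = 0.0396, with the block 0.115).

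**Figure D4:**
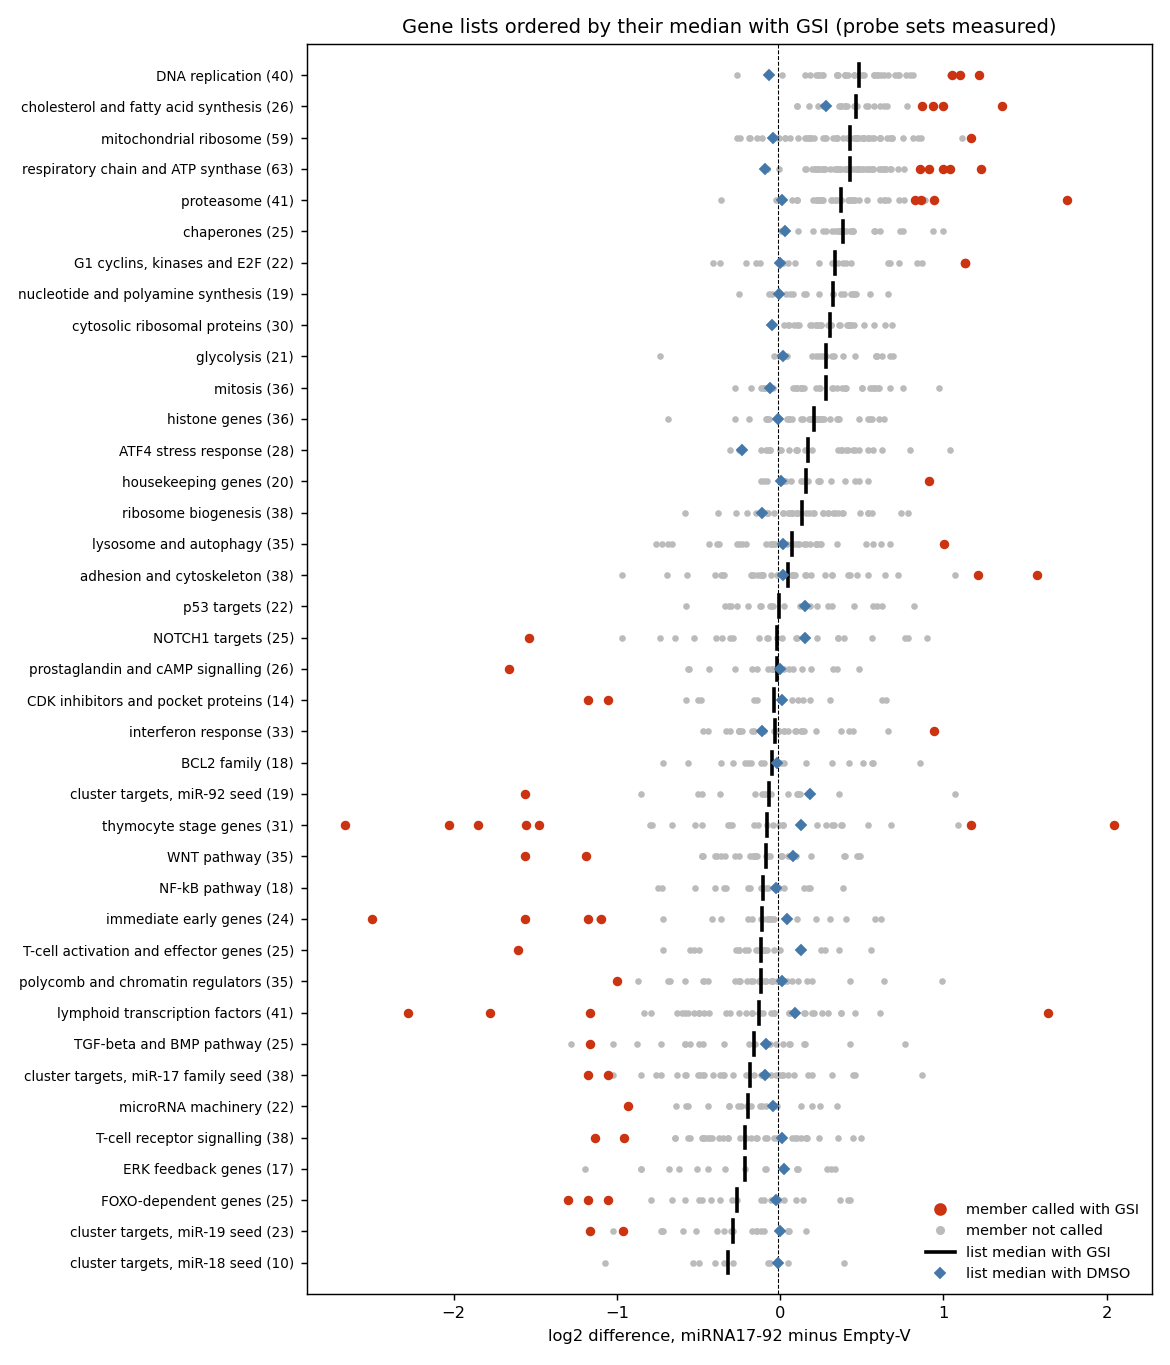
log2 difference, miRNA17-92 minus Empty-V (x axis), of the members of 39 gene lists (rows, probe sets measured in brackets) with GSI, as points, red where a member passed the test without the block, with the list median with GSI (black bar) and with DMSO (blue diamond). The dashed line is the median of all probe sets with GSI. DNA replication stands at the top with a median of 0.48 and the targets of miR-18 at the bottom with -0.32, while the DMSO medians lie between -0.24 and 0.28.

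Of 25 NOTCH1 target genes only CR2 was called while NOTCH1 was blocked, 12 were above 0 and 13 below, and the median was -0.02. Over all probe sets 0.573% were called lower, 47.5% were above 0 and 51.9% below. CR2, which differed by -1.54, had 7.70 and 7.76 in miRNA17-92 cells, against 9.29 and 9.25 in Empty-V cells. MYC had 11.10 and 11.15 in miRNA17-92 cells and 11.44 and 11.07 in Empty-V cells (difference -0.13, adjusted p = 0.765), and the groups overlapped. HES1, a transcriptional repressor, had 6.91 and 6.69 against 5.89 and 6.15 (difference 0.78, adjusted p = 0.0848), and the groups did not overlap, as for 22.2% of all probe sets higher and 24.5% lower in miRNA17-92 cells. NOTCH3, a receptor and target gene, differed by 0.90 (adjusted p = 0.0981).

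The remaining lists held few calls, beside 0.499% of all probe sets called higher and 0.573% called lower. Of 38 adhesion and cytoskeleton genes 2 were called higher, TAGLN2 and S100A10, a ligand of annexin A2, at 1.21 (adjusted p = 0.0421, with the block 0.105). Of 35 WNT pathway genes 2 were called lower, MCC and SFRP2, described below. GLA, a lysosomal galactosidase, at 1.01 among 35 lysosome and autophagy genes, PSMB9 among 33 interferon response genes and PTGER4 among 25 prostaglandin and cAMP genes were the only called members of their lists. Of the BCL2 family, p53 target, NF-kB, histone and ATF4 lists 0 members passed in limma, where at an unadjusted p below 0.05 the ATF4 list had 13 of 28 higher, against 8.67% of all probe sets, and a median of 0.17, against -0.24 in DMSO. PHGDH, the first enzyme of serine synthesis, differed by 0.80 there (adjusted p = 0.0894).

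By the medians of marker lists the arrays matched the labelled cell type. The T-cell markers had a median signal of 12.44 and 12.28 in miRNA17-92 cells and 12.88 and 12.70 in Empty-V cells with GSI, and CD3E, a chain of the T-cell receptor complex, was between 16.34 and 16.74. Of 13 such markers 10 were below 0, against 51.9% of all probe sets, and CD2 alone was called. The median signals of the markers of B cells, myeloid cells, erythroid cells and megakaryocytes, NK cells, and stroma and epithelium, 54 probe sets in all, lay between 3.15 and 4.63 on the 4 GSI arrays, under the median of all values, and 0 of them passed in limma, with 3 lower and 3 higher at an unadjusted p below 0.05. Of all probe sets 9.22% were lower and 8.67% higher at that p. Means below 5.32 in both groups were found for 5 of 9, 9 of 12, 8 of 11, 6 of 8 and 11 of 14 markers of these lists in the same order. CD79A, a chain of the B-cell receptor, was among the exceptions, with 6.54 and 7.31 in miRNA17-92 cells and 6.16 and 6.66 in Empty-V cells. So were KRT8, between 7.98 and 9.03 on the 4 GSI arrays, COL1A2, between 7.68 and 8.79, and ITGAM, between 6.39 and 7.37.

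The effect of the cluster was compared between GSI and DMSO, on separate arrays. With DMSO, 9 of 21448 probe sets were called (0.042%), 4 higher (0.0186%) and 5 lower (0.0233%), against 230 with GSI. With the block 3 were called (0.014%), and without 1 array between 0 and 3. The probe sets called higher with GSI had a median difference of 1.07 with GSI and 0.16 with DMSO, where 76 of 107 had the same sign and 18 exceeded 0.5 the same way. Those called lower had medians of -1.15 and -0.28, with 92 of 123 of the same sign and 31 past 0.5. Both groups were chosen by their difference with GSI, and this choice by itself favours larger medians with GSI than with DMSO. The share of all probe sets with the same sign under both treatments was not counted. Over all probe sets, which are not independent of each other, the difference with GSI correlated with that with DMSO at 0.112.

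A test of the difference of the effects called 6 of 21448 probe sets (0.028%), all with a lower value for GSI than for DMSO: SFRP2, MCC, SCG2, ICOS, FCMR and PRKCH. SFRP2 alone passed with the block (0.00466%), and between 0 and 2 passed when 1 array was left out. SFRP2, a secreted modulator of WNT signalling (chr4:153780591-153789083), had 8.93 and 8.80 in miRNA17-92 cells and 10.02 and 10.09 in Empty-V cells with GSI, a difference of -1.19 (adjusted p = 0.0286, with the block 0.0768). With DMSO it had 9.34 and 9.19 in miRNA17-92 cells and 7.38 and 7.00 in Empty-V cells, a difference of 2.08 (adjusted p = 0.00857, with the block 0.0221). The order of the vectors was thus opposite between the treatments, with no overlap in either, and the effects differed by -3.26 (adjusted p = 0.00670, with the block 0.0177).

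PRKCH, the eta isoform of protein kinase C, showed its difference in DMSO only. It had 10.39 and 10.54 in miRNA17-92 cells and 10.74 and 10.57 in Empty-V cells with GSI (difference -0.19, adjusted p = 0.600), and 10.87 and 11.09 against 9.07 and 9.22 with DMSO (difference 1.84, adjusted p = 0.00998, with the block 0.0395). The effects differed by -2.02 (adjusted p = 0.0412, with the block 0.129). MCC, a regulator of the cell cycle and of WNT signalling, had 3.43 and 3.53 in miRNA17-92 cells and 4.90 and 5.19 in Empty-V cells with GSI, all below 5.32, a difference of -1.57 (adjusted p = 0.00777, with the block 0.0277). With DMSO it had 4.33 and 4.39 against 3.64 and 3.53, and the effects differed by -2.34 (adjusted p = 0.0294, with the block 0.112). For ICOS the DMSO arrays had 11.04 and 11.14 in miRNA17-92 cells and 10.70 and 10.66 in Empty-V cells, and for FCMR 7.80 and 7.54 against 7.63 and 7.62. The effects of GSI and DMSO differed by -2.02 for ICOS, -2.31 for FCMR and -2.30 for SCG2 (adjusted p = 0.0296, 0.0397 and 0.0294), and with the block these did not pass (0.124, 0.124 and 0.112).

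Among the 9 probe sets called with DMSO, DNTT and TENT5C were lower under both treatments, with an adjusted p of 0.0483 in DMSO for each, and 0.209 with the block. TENT5C had 4.84 and 5.07 in miRNA17-92 cells, against 6.64 and 6.58 in Empty-V cells with GSI, and 6.37 and 6.39 against 7.65 and 7.64 with DMSO. SCN7A, a sodium channel, differed by 0.25 with GSI and 1.52 with DMSO, and MFAP4, a matrix protein, by -0.03 with GSI and -1.42 with DMSO. DCLK3, a kinase, differed by -1.11 with GSI and -1.88 with DMSO, and SHCBP1, an SHC1-binding protein of dividing cells, by -0.75 with GSI and -1.26 with DMSO. For these 4 the test of the difference between treatments did not pass (adjusted p = 0.154 to 0.386), and none of the 4 passed in DMSO with the block. The other 3 of the 9 were SFRP2, PRKCH and the unnamed probe set.

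**Figure D5:**
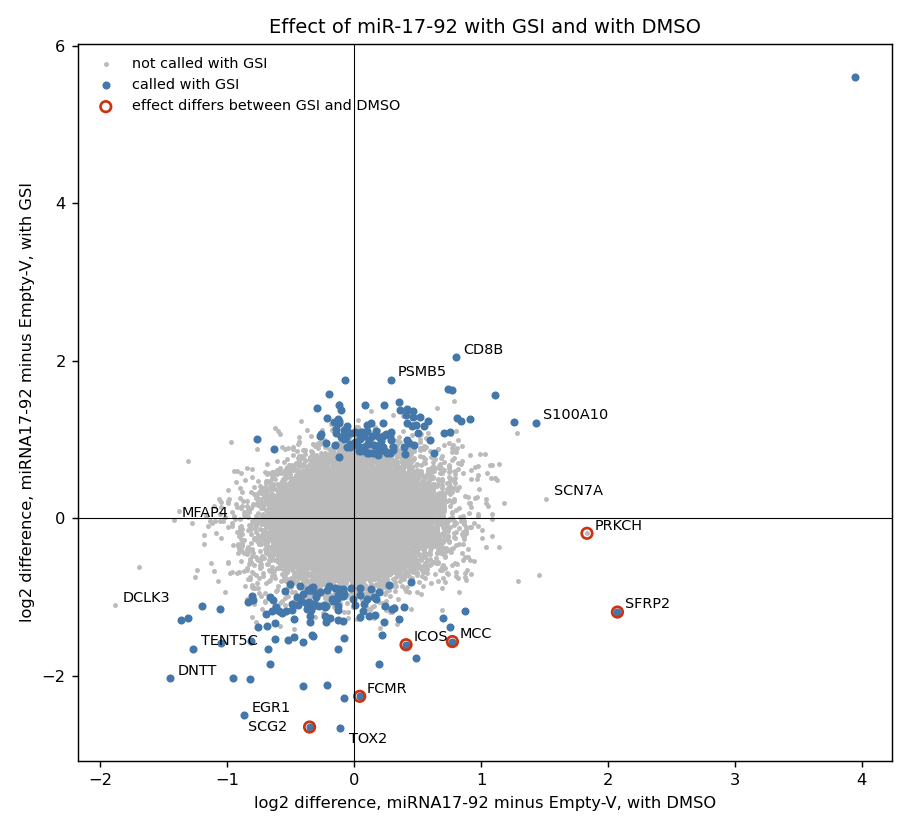
log2 difference, miRNA17-92 minus Empty-V, with GSI (y axis) against the same with DMSO (x axis), 1 point per probe set. Blue points passed the test with GSI, and red rings mark the 6 probe sets whose effects differed between the treatments, among them SFRP2 at -1.19 with GSI and 2.08 with DMSO. The unnamed probe set is the point at the upper right, at 5.61 and 3.95.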

How the data were processed

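The authors hybridized RNA to Clarion S Human arrays, summarized the probes with SST-RMA in Transcriptome Analysis Console 4.0 (hg38 in the supplement and the submitters' processing notes, while the main text names an older build) and deposited log2 values, rounded to 2 decimals, which were used as they are for all 8 arrays. SST-RMA normalizes arrays to a common distribution, so differences are relative to the bulk of transcripts. Array medians lie between 5.30 and 5.36, replicate arrays correlated at 0.9941 to 0.9953 over probe sets, and the number of arrays limits the precision. Of 21448 probe sets 17709 have 1 gene name in the platform's annotation and 3739 none.

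A linear model of 4 group means was fitted to the 8 arrays with limma 3.58.1 (R 4.3.3), which left 4 residual degrees of freedom, with 5.29 from the prior. Adjustment of p followed Benjamini and Hochberg across the 21448 probe sets. The alternatives were the set as a replicate block, a threshold of 0.1, dim probe sets left out, quantile normalization, an intensity trend with a robust prior, the 4 GSI arrays alone and each array left out. Summaries used Python 3.11.15 with pandas 2.3.3 and numpy 2.4.6, and figures matplotlib 3.10.9. The model was tested on simulated data, where it called 81% of 100 changes of 1 log2 unit and 13 unchanged probe sets. The simulated noise was independent between arrays, so this test does not cover the correlated deviations described below.

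Set numbers were taken to pair the arrays, since the supplement describes 2 independent experiments. Deviations from the group means correlated at -0.240 to -0.192 between groups, for all 6 pairs of groups, and the set means differed less (SD 0.0991) than independent arrays would (0.169). P-values without the block may therefore be too small. Whether values were adjusted by set before they were deposited is not given in the sources used here. Such an adjustment would change what the block, the residual degrees of freedom and the comparison of set 1 with set 2 measure.

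The genes, lists and comparisons were chosen with earlier results of these data known. The lists hold 1224 genes, 1100 of them with a probe set, and a further list is not reported here. Named genes are the 15 largest differences per direction among called probe sets of 1 gene whose groups do not overlap, all called with and without the block, up to 4 called members of a list (or 2 with the smallest p where none was called), those called with DMSO or for the difference between treatments, and MCM7. Other members are given as examples and were chosen after their values were seen.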

Additional observations from a re-analysis of the deposited data

Results flagged for a closer look

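For 6 genes the effect of the cluster differed between GSI and DMSO by the test of that difference in limma. In SFRP2, a secreted modulator of WNT signalling, the effects differed by -3.26, with lower values in miRNA17-92 than in Empty-V cells with GSI and higher values with DMSO. In MCC they differed by -2.34, in FCMR by -2.31, in SCG2 by -2.30, and in ICOS and PRKCH by -2.02 each. The vectors differed past the threshold in DMSO only for PRKCH, in GSI only for MCC, FCMR, SCG2 and ICOS, and under both treatments for SFRP2. With the set as a block SFRP2 passed and the other 5 did not.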

How the results depend on the processing

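With GSI the count of called probe sets, 230, was 927 at a threshold of 0.1, 912 with dim probe sets left out, 1232 with an intensity trend and robust prior, 33 with the replicate block, 34 on the 4 GSI arrays alone, 1 on these with the block, and 1 with crossed numbers as the block, an alternative chosen after seeing the data. Without 1 array it was 4 to 85. With DMSO the count, 9, was 3 with the block, 43 without dim probe sets, 5 after quantile normalization, 45 with the trend and 0 to 3 without 1 array. For the difference between treatments the count, 6, was 21 at a threshold of 0.1, 1 with the block, 14 without dim probe sets, 111 with the trend and 0 to 2 without 1 array. At a fold of 1.5 the share of the same sign in set 1 was 69.3% for probe sets chosen as higher in set 2 and 67.2% for those chosen as lower, against 76.5% and 75.4% at a fold of 2. The cause of these changes was not tested.

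Of the 73 named probe sets called with GSI, all kept their sign under each alternative, the 65 still tested where dim ones were left out included, and 32 were called with the block, 71 after quantile normalization, 73 with the trend and 4 to 44 without 1 array. Only quantile normalization could have changed a sign here. The other fits leave the difference as it was or, since the groups of called probe sets do not overlap, at least its sign. Pairing by set was also applied to the lists, where the block left 1 proteasome gene called and none of DNA replication, cholesterol synthesis or the respiratory chain. Without 1 array, the medians of 26 of 39 lists with GSI moved by over 1.5 times or changed sign, 7 of them in sign or to 0, all 7 of size 0.08 or less. Without set 2 of Empty-V cells with GSI the median was 0.25 for the proteasome, 0.17 for cytosolic ribosomal proteins, 0.14 for glycolysis and 0.20 for nucleotide synthesis, and without set 2 of miRNA17-92 cells with GSI -0.31 for the miR-17 targets. Without set 1 of miRNA17-92 cells with GSI it was -0.12 for FOXO-dependent and for ERK feedback genes. DNA replication stayed between 0.47 and 0.62 and cholesterol synthesis between 0.45 and 0.48. With 2 arrays per group and no detection values used, probe sets below a signal of 5.32 have differences of uncertain size.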
